A study of Mus musculus with 24 samples.

Results

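The transcripts described here encode 8 transcription factors that hold hepatocyte identity: Hnf4a, Onecut1, Onecut2, Cebpa, Cebpb, Cebpd, Prox1 and Nr5a2. They were taken by symbol from the platform's probe-to-gene annotation, and 8 of 8 were measured among 22180 genes, each on 1 probe set. They were followed over 24 Affymetrix MoGene 2.0 ST arrays of primary hepatocytes from male C57Bl6J mice. The cells carried an adenoviral short hairpin RNA against FOXA2 (shFOXA2) or against lacZ (shlacZ), a bacterial gene that mouse cells lack, added at a multiplicity of infection of 5. They were then treated for 4 h with 100 nM glucagon or 1 nM insulin, each together with 2 µM GW4064, a compound made to activate FXR, the receptor for bile acids, or its solvent DMSO. The 8 groups were therefore shFOXA2 or shlacZ cells under glucagon with GW4064, glucagon with DMSO, insulin with GW4064 or insulin with DMSO, with 3 arrays each. Each array of a group came from 1 of 3 experiments, per the labels, and each experiment pooled hepatocytes of 3 mice, per the series' design text. All groups shared medium with 100 nM dexamethasone, a glucocorticoid, and all carried an adenovirus. The title of the series asks how glucagon signalling, FOXA2 and FXR act on fasting gluconeogenesis. No group lacked both hormones, so a higher level under glucagon cannot be told apart from a lower level under insulin.

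Hepatocytes keep their character through a network of transcription factors that bind one another's genes and, jointly, the genes of plasma proteins, apolipoproteins, urea synthesis and glucose output. HNF4A, a nuclear receptor, is the centre of that network, and the ONECUT factors (ONECUT1 is also called HNF6), the C/EBP leucine zipper proteins, the homeodomain protein PROX1 and the orphan receptor NR5A2 (LRH-1) bind with it at many liver enhancers. Glucagon raises cAMP in hepatocytes, which activates protein kinase A and the factor CREB at cAMP response elements (CREs), whereas insulin acts through AKT and excludes FOXO1 from the nucleus.

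The promoter windows of 3 members are printed because they hold letters of an element that belongs to this network or to cAMP signalling. They are RefSeq sequences of build GRCm38.p6, 5′ to 3′, from 250 bases before to 50 bases after an annotated start. In the Cebpb window (chr2:167688665-167688964, plus strand) and the Onecut1 window (chr9:74861671-74861970, plus strand), capitals mark TGACG or its complement CGTCA, the core of the CRE. In the Hnf4a window (chr2:163506607-163506906, plus strand), which lies at the farther upstream of its 2 listed starts, capitals mark ATCAATA, the letters searched for ONECUT proteins.
Cebpb promoter: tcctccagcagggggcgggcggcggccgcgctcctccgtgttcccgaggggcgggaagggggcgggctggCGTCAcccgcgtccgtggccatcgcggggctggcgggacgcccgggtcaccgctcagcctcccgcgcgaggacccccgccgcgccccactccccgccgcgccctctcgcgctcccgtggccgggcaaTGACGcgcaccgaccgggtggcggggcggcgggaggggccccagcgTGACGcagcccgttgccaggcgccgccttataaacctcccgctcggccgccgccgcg
Onecut1 promoter: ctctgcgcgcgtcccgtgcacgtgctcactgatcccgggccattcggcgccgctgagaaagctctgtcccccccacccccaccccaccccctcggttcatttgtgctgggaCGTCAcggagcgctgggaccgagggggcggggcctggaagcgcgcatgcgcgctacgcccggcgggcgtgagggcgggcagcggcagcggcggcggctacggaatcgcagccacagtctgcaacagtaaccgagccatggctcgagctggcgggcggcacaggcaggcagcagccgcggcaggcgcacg
Hnf4a upstream promoter: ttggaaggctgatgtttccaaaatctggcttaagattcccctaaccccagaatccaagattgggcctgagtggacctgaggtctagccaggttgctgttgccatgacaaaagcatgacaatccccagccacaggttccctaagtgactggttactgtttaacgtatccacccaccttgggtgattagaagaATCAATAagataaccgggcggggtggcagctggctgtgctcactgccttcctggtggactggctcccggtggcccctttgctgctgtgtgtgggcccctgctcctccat
Of the 8 members, 6 had an entry in the table, with 9 promoter windows. Both strands were searched. The CRE core TGACG occurred at 3 places in the Cebpb window and at 1 in the Onecut1 window, and 20.8% of all 32851 promoter windows held it. The full palindrome TGACGTCA, which contains that core and is found in 1.79% of windows, was in 0 of the members' 9. The ONECUT letters occurred once in the upstream Hnf4a window, at 0 places in the other Hnf4a window, and in 2.05% of all windows. Which of the 2 starts these cells used was not tested. The C/EBP pattern TTGCNNAA, present in 10.8% of windows, occurred once, in 1 of the 2 Nr5a2 windows. The NR5A2 letters CAAGGTCA (1.56% of windows) and the FOXA letters TGTTTAC (3.65%) were in 0 of the 9. A match describes these letters only and shows no binding.

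Levels are log2 expression values as deposited, with a median of 3.25 over all probe sets and arrays, which lies close to the floor of the arrays. Array medians lay between 3.21 and 3.28, and replicates correlated at r = 0.986 to 0.994 across genes, which are not independent. The number of arrays limits the precision. The targeted gene Foxa2 was lower with shFOXA2 in 12 of 12 pairs of arrays, by 0.03 to 0.90 on the log2 scale (averaged difference -0.43, SE 0.072, limma adjusted p = 0.0613, and 0.0194 with the experiment as a block). Its depth was least in experiment 3 (-0.12 over 4 pairs, against -0.51 and -0.66 in experiments 1 and 2), so results are also given by experiment. Of the 9 measured hepatocyte markers, albumin (Alb) lay at 12.89 to 13.19 on all arrays and 8 lay at 7.41 or more, whereas the urea cycle gene Ass1 lay at 3.57 to 5.30. Of the other cell types' markers, the macrophage genes Cd68 and Cd14 averaged 9.24 and 8.05 under glucagon and 9.0 and 7.68 under insulin, and the endothelial genes Cdh5 and Lyve1 averaged 7.02 and 6.71 under glucagon and 6.86 and 6.73 under insulin. The defining macrophage genes Adgre1 and Clec4f and the lymphatic gene Pdpn averaged at most 3.08. In these bulk samples, fewer cells of a type and less RNA per cell cannot be told apart.

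Hormone was the condition with which the hepatocyte factors differed. Averaged over both hairpins and both drugs, Hnf4a, Onecut1, Prox1, Cebpa and Cebpb were higher under glucagon than under insulin, Cebpd was lower, and Onecut2 and Nr5a2 did not pass the test (limma over all genes, Benjamini-Hochberg adjusted p under 0.05). Thus 5 of 8 rose and 1 fell, while 7.38% of all genes rose and 8.85% fell (16.2% in either direction). Among the 9696 genes that reached a level of 4 on 3 or more arrays the shares were 16.6% higher and 20.8% lower (37.4% in all), and 7 members, Cebpd left out, belonged to them. Onecut1 did so only through its glucagon arrays, since all its insulin arrays were under 4. The median difference of the members was 0.46, against 0.01 over all genes. With the experiment as a block 6 rose and 2 fell, and 12% of all genes rose and 12.6% fell (24.6% in all).

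**Figure D1:**
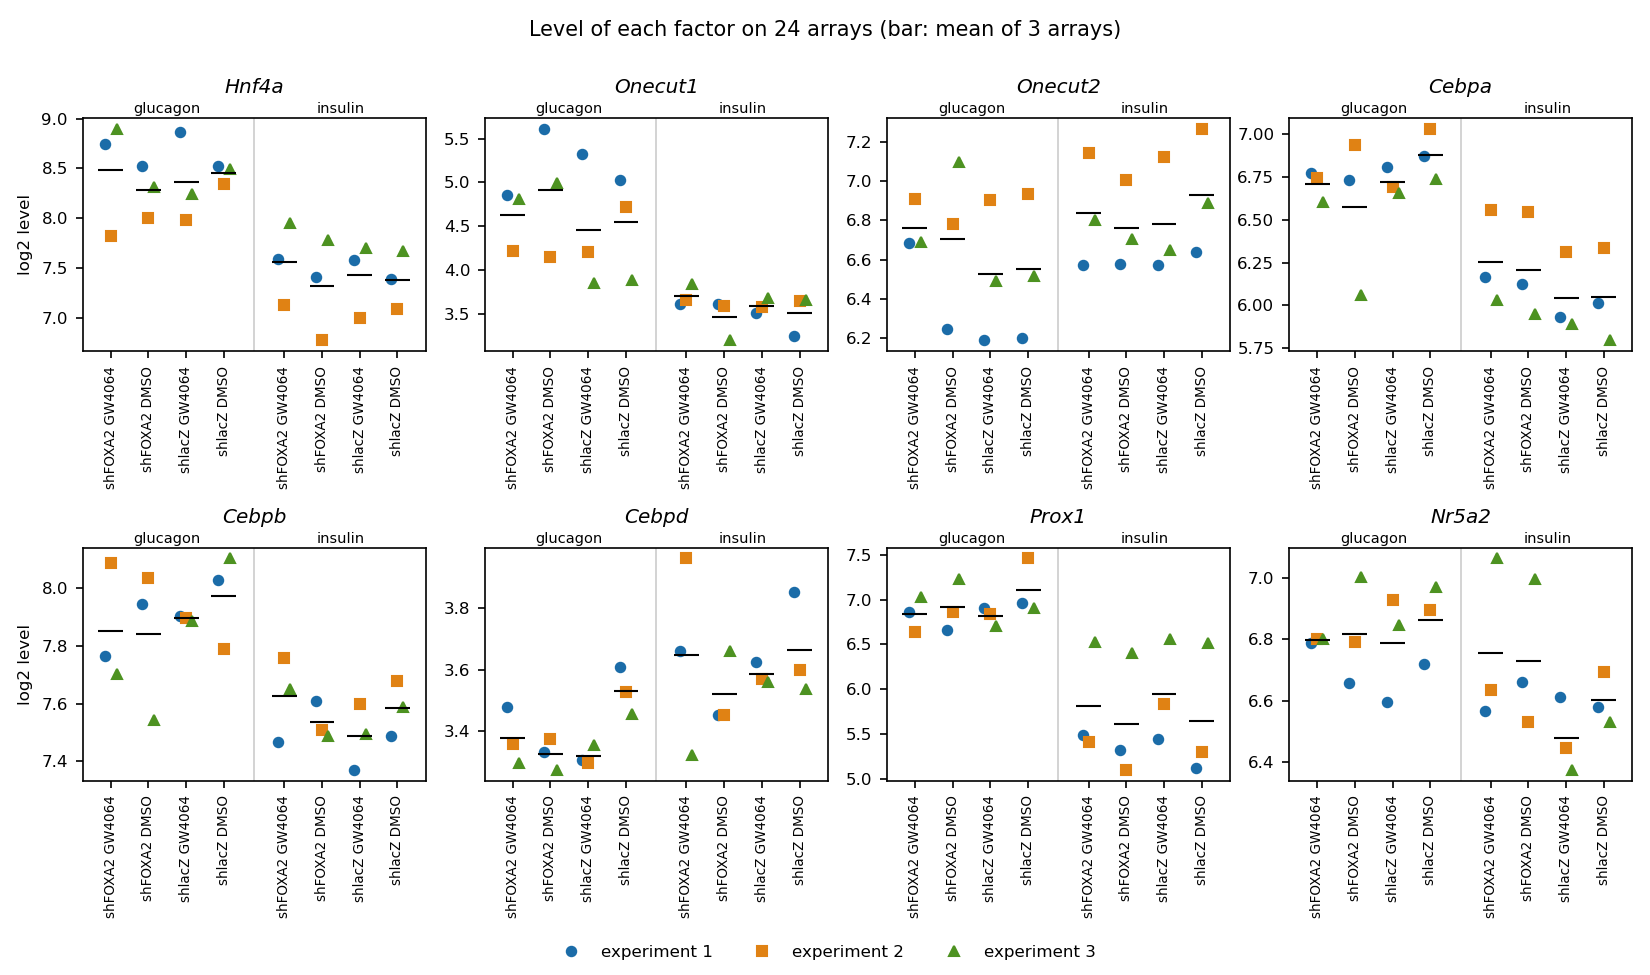
Log2 level of each of the 8 factors on each of the 24 arrays, by group, with glucagon groups left of insulin groups and a mark for each experiment. Hnf4a, Onecut1, Prox1, Cebpa and Cebpb lie higher under glucagon, Onecut2 and Nr5a2 overlap widely, and Cebpd stays between 3.27 and 3.96 on all arrays.

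Hnf4a, the nuclear receptor at the centre of the network, had a lowest, median and highest level of 7.82, 8.42 and 8.90 on the 12 glucagon arrays, against 6.78, 7.50 and 7.95 on the 12 insulin arrays. The 2 sets met in a narrow band, and 11 of 12 glucagon arrays stood above every insulin array. Within the same experiment the glucagon array was the higher one in 12 of 12 pairs, which held for 4.58% of all genes, and the difference was 0.97 (SE 0.15, 1.96-fold, 95% interval 0.66 to 1.29, limma adjusted p = 6.7e-05). In shlacZ cells with DMSO, the 3 values were 8.53, 8.35 and 8.50 under glucagon and 7.39, 7.09 and 7.67 under insulin. In shFOXA2 cells with DMSO they were 8.52, 8.0 and 8.32 under glucagon and 7.41, 6.78 and 7.79 under insulin. In both kinds of cells each glucagon array stood above each insulin array. With GW4064, the values were 8.75, 7.82 and 8.90 under glucagon and 7.59, 7.13 and 7.95 under insulin in shFOXA2 cells, and 8.87, 7.98 and 8.25 under glucagon and 7.59, 7.0 and 7.70 under insulin in shlacZ cells. The 4 glucagon groups averaged 8.28 to 8.49 and the 4 insulin groups 7.32 to 7.56, and within a hormone the groups' ranges overlapped.

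Onecut1, a homeodomain factor of hepatocyte and bile duct development, had levels of 3.86, 4.77 and 5.61 under glucagon, against 3.20, 3.62 and 3.85 under insulin (lowest, median and highest of 12 arrays each). All insulin values lay close to the floor, and every glucagon array stood above every insulin array, as for 1.11% of all genes. The difference was 1.07 (SE 0.17, 2.10-fold, 95% interval 0.70 to 1.43, limma adjusted p = 0.00013). Because of that floor, the fold is set against near-background signal. In shFOXA2 cells with DMSO the values were 5.61, 4.15 and 5.0 under glucagon and 3.62, 3.59 and 3.20 under insulin. The shlacZ cells with DMSO had 5.02, 4.72 and 3.89 under glucagon and 3.25, 3.65 and 3.66 under insulin. The third value of each triplet is from experiment 3, in which the shlacZ cells under glucagon lay just above their insulin partner. The difference by experiment was 1.71, 0.70 and 0.79 in experiments 1, 2 and 3, and in experiment 3 the shlacZ pairs differed by 0.23 with DMSO and 0.18 with GW4064, the shFOXA2 pairs by 1.80 and 0.97. Without experiment 3 the averaged difference was 1.20 (limma adjusted p = 0.0014).

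Onecut2, a close relative of Onecut1 with a similar homeodomain, did not follow it. Its levels were 6.19, 6.69 and 7.09 under glucagon, against 6.57, 6.75 and 7.27 under insulin. The arrays of the hormones were intermixed, although 10 of 12 pairs were lower under glucagon. The difference of -0.19 (SE 0.12, 95% interval -0.44 to 0.06) did not pass (limma adjusted p = 0.360), and with the experiment as a block its adjusted p was 0.0278. The difference was -0.26, -0.25 and -0.06 in experiments 1, 2 and 3. Onecut3, the remaining gene of the family, stayed at the floor, at 2.90 to 3.45 under glucagon and 2.75 to 3.33 under insulin.

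Prox1, a homeodomain factor that acts in hepatocytes as a corepressor with HNF4A and NR5A2, had levels of 6.64, 6.89 and 7.46 under glucagon, against 5.09, 5.47 and 6.56 under insulin. Every glucagon array stood above every insulin array, though by only a small margin at the edge. The difference was 1.17 (SE 0.19, 2.25-fold, 95% interval 0.78 to 1.56, limma adjusted p = 1.0e-04). The range of the insulin arrays came from the experiments. In experiment 3 the 4 insulin arrays lay between 6.40 and 6.56, whereas they lay between 5.12 and 5.49 in experiment 1 and between 5.09 and 5.84 in experiment 2. The glucagon arrays did not separate in this way, at 6.71 to 7.24 in experiment 3 against 6.66 to 6.96 in experiment 1 and 6.64 to 7.46 in experiment 2. The hormone difference was therefore 0.47 in experiment 3, against 1.5 and 1.55 in experiments 1 and 2. In a test chosen after these values were seen, the hormone difference of Prox1 varied between experiments (limma moderated F, adjusted p = 0.0073), which held for 1.19% of all genes and for no other member, Onecut1 coming next at an adjusted p of 0.190. Without experiment 3 the averaged difference of Prox1 was 1.52 (limma adjusted p = 2.2e-07).

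**Figure D2:**
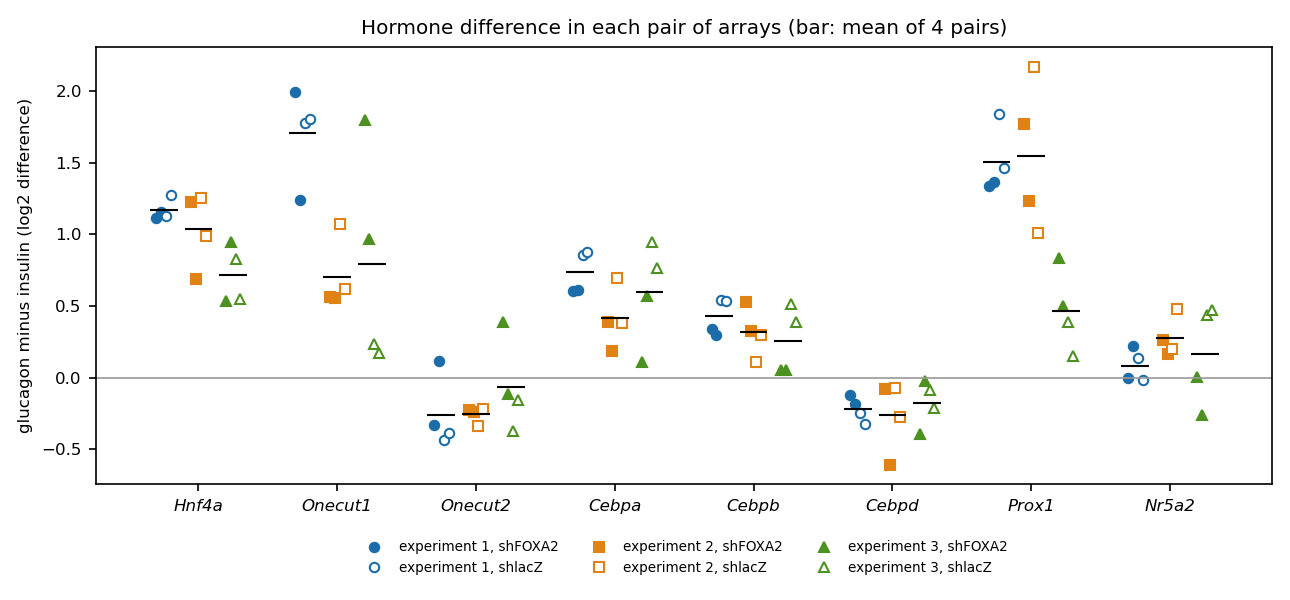
Log2 difference of glucagon minus insulin for each factor in each pair of arrays of the same experiment, hairpin and drug. Bars mark the mean of the 4 pairs of each experiment. The pairs of Hnf4a, Onecut1, Prox1, Cebpa and Cebpb are all above 0 and those of Cebpd all below it, and the Prox1 pairs of experiment 3 lie between 0.15 and 0.83, below the 1.01 to 2.17 of the other experiments.

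Other genes also set experiment 3 apart. Sox9, a duct and progenitor factor, lay at 7.04 to 7.60 under glucagon and 7.36 to 7.89 under insulin in experiment 3, against 5.65 to 6.65 under glucagon and 7.35 to 8.50 under insulin in experiments 1 and 2. Krt19, another duct marker, was instead lower in experiment 3, at 3.58 to 3.87 under glucagon and 3.59 to 4.10 under insulin. In experiments 1 and 2 Krt19 lay at 4.26 to 4.60 under glucagon and 4.87 to 5.47 under insulin. The chemokine gene Cxcl1 in shlacZ cells of experiment 3 was at 8.08 and 8.64 under glucagon and at 6.96 and 7.19 under insulin, the opposite of its direction in experiments 1 and 2. The summed level of 8 macrophage markers was 10.3 to 10.5 under glucagon and 10.3 to 10.4 under insulin in experiment 3, against 9.28 to 9.74 under glucagon and 8.71 to 9.67 under insulin in experiments 1 and 2. That sum was carried mostly by Cd68, at 9.82 to 10.10 in experiment 3 against 7.86 to 9.13, and less by Cd14, at 7.83 to 8.74 against 7.11 to 8.01. Of the 8 markers 5 averaged under 4, and the defining gene Adgre1 lay at 2.17 to 2.67 against 2.21 to 2.86. The part of these in the Prox1 result was not tested. Prox1 is also made by lymphatic endothelium, and the summed level of 9 endothelial markers in experiment 3 (8.29 to 8.49 under glucagon, 8.16 to 8.25 under insulin) lay between those of experiment 2 (7.91 to 8.01 and 7.87 to 7.95) and experiment 1 (9.15 to 9.17 and 9.10 to 9.30). That sum rests mainly on Cdh5 and Lyve1, while Flt4 (3.58 to 4.83) and the lymphatic gene Pdpn (2.77 to 3.46) were low on all arrays. The part of lymphatic cells in the Prox1 result was not tested.

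Cebpa, the C/EBP member of differentiated, resting hepatocytes, had levels of 6.06, 6.74 and 7.03 under glucagon, against 5.79, 6.08 and 6.56 under insulin. The sets overlapped through 1 low glucagon array, the shFOXA2 array with DMSO of experiment 3, and 11 of 12 glucagon arrays stood above all insulin arrays. All 12 pairs were higher under glucagon, and the difference was 0.58 (SE 0.10, 1.5-fold, 95% interval 0.38 to 0.79, limma adjusted p = 0.00021). The values of Cebpa with shlacZ and DMSO were 6.87, 7.03 and 6.74 under glucagon and 6.01, 6.34 and 5.79 under insulin, and in shFOXA2 cells with DMSO 6.74, 6.94 and 6.06 under glucagon and 6.13, 6.55 and 5.95 under insulin. The triplets were apart in the shlacZ cells and overlapped in the shFOXA2 cells. The difference by experiment was 0.74, 0.41 and 0.60.

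Cebpb, a C/EBP member that cAMP and cytokines are known to induce, had levels of 7.54, 7.90 and 8.10 under glucagon, against 7.37, 7.55 and 7.76 under insulin. The ranges overlapped, yet 10 of 12 glucagon arrays stood above all insulin arrays and all 12 pairs were higher under glucagon. The difference was small, at 0.33 (SE 0.062, 1.26-fold, 95% interval 0.20 to 0.46, limma adjusted p = 0.00049), and it was 0.43, 0.32 and 0.25 in experiments 1, 2 and 3. With shlacZ and DMSO the values were 8.03, 7.79 and 8.10 under glucagon and 7.49, 7.68 and 7.59 under insulin, so the triplets were apart by a narrow gap. With shFOXA2 and DMSO they were 7.95, 8.04 and 7.54 under glucagon and 7.61, 7.51 and 7.49 under insulin, and the triplets overlapped. The calls of Cebpa and Cebpb needed experiment 1. Without it the differences were 0.51 (limma adjusted p = 0.0692) for Cebpa and 0.29 (limma adjusted p = 0.0641) for Cebpb.

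Cebpd, the C/EBP member of the acute phase response, lay near the floor on every array. Its levels were 3.27, 3.36 and 3.61 under glucagon, against 3.32, 3.58 and 3.96 under insulin. The ranges overlapped, while 12 of 12 pairs were lower under glucagon, as were those of 5.75% of all genes. The difference of -0.22 (SE 0.059, 95% interval -0.34 to -0.09) passed (limma adjusted p = 0.0128), but not without experiment 1 (adjusted p = 0.159) or experiment 2 (adjusted p = 0.128). Cebpd reached a level of 4 on none of the 24 arrays, so this difference was set within near-background signal.

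Nr5a2, an orphan receptor of bile acid and cholesterol genes, had levels of 6.59, 6.80 and 7.0 under glucagon, against 6.37, 6.60 and 7.06 under insulin. The highest array of all was an insulin array, from experiment 3, and 9 of 12 pairs were higher under glucagon. The difference of 0.18 (SE 0.068, 95% interval 0.03 to 0.32) did not pass (limma adjusted p = 0.0906), and with the experiment as a block its adjusted p was 0.0365. Its levels held within a log2 span of 6.37 to 7.06 over all conditions.

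Some members separated the hormones in every experiment. In each of the 3 experiments the 4 glucagon arrays stood above the 4 insulin arrays for Hnf4a, Onecut1, Prox1 and Cebpa, that is 4 of 8 members, and for 2.57% of all genes. The tests above took the 4 pairs of an experiment as separate. With 1 averaged difference per experiment (n = 3, limma), the adjusted p was 0.0013 for Hnf4a, 0.0033 for Cebpa, 0.0095 for Cebpb, 0.0123 for Prox1, 0.0125 for Onecut1 and 0.0274 for Cebpd. Onecut2 and Nr5a2 did not pass in this fit. The share of all genes that passed it is not given here, so the members cannot be set against the other genes in it.

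Within single conditions, with 3 arrays against 3, fewer members passed. In shlacZ cells with DMSO, Hnf4a (1.07, limma adjusted p = 0.0444), Cebpa (0.83, adjusted p = 0.0172) and Prox1 (1.47, adjusted p = 0.0256) rose, 3 of 8 members against 1.71% of all genes. In shFOXA2 cells with DMSO, Onecut1 (1.45, limma adjusted p = 0.0167) and Prox1 (1.32, adjusted p = 0.0477) rose, 2 of 8 against 2.12%. Without experiment 1, 0 members passed in either, and without experiment 2, 0 passed in shFOXA2 cells with DMSO. With GW4064, 0 members passed in shFOXA2 cells (1.37% of genes higher) and 0 in shlacZ cells (1.29%). There the differences of the 5 factors that rose on average were still 0.23 to 1.03 in shFOXA2 cells and 0.41 to 0.94 in shlacZ cells, and 5 and 7 members had an unadjusted p under 0.05. With the experiment as a block, 5 members rose in shlacZ cells with DMSO (4.66% of genes) and 3 in shFOXA2 cells with DMSO (5.32%). With GW4064 the block gave 3 that rose in shFOXA2 cells (Hnf4a, Cebpa and Prox1, 4.08%) and 3 in shlacZ cells (Hnf4a, Cebpa and Cebpb, 3.91%). A call in 1 condition and not in another does not show that the conditions differed.

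GW4064 moved no member past the test. Averaged over hormones and hairpins, the 8 differences of GW4064 minus DMSO lay between -0.05 (Nr5a2) and 0.10 (Hnf4a), each with a limma adjusted p of 0.9999. For Hnf4a the levels were 7.0, 7.89 and 8.90 with GW4064 and 6.78, 7.89 and 8.53 with DMSO (12 arrays each), and the 95% interval of the difference was -0.21 to 0.41. The narrowest interval was that of Cebpd, -0.15 to 0.10, and the widest that of Prox1, -0.36 to 0.42. The drug's comparison called only 2 genes of all (0.00902%), and 766 had an unadjusted p under 0.05, none of them a member. Among the 2 was the corepressor gene Nr0b2, higher with GW4064 (0.53, limma adjusted p = 0.0337, and 0.0199 with the block). Nr0b2 lay near the floor, at 2.66 to 3.76 over all arrays. Under glucagon or under insulin alone 0 members and 0% of genes passed in limma. With the block 0 members passed, whereas 0.0135% of genes did in the averaged comparison and 0.00902% under each hormone.

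The hairpin against FOXA2 likewise moved no member past the test. Foxa2 itself passed only with the experiment as a block, so this does not show that its loss leaves the members unchanged. FOXA2 is known to bind near many of the same liver genes. The 8 averaged differences of shFOXA2 minus shlacZ lay between -0.08 (Prox1, 95% interval -0.47 to 0.31) and 0.15 (Onecut1, -0.21 to 0.51), with limma adjusted p of 0.884 or more. Hnf4a had levels of 6.78, 7.89 and 8.90 in shFOXA2 cells, against 7.0, 7.84 and 8.87 in shlacZ cells, and a difference of 0.00 (95% interval -0.31 to 0.32). The sets covered nearly the same span. In experiments 1, 2 and 3 the hairpin difference was -0.51, -0.66 and -0.12 for Foxa2. It was -0.03, -0.17 and 0.21 for Hnf4a, and -0.02, -0.36 and 0.13 for Prox1. The Prox1 pairs of experiment 2 lay at -0.60 to -0.20. For every member the sign of the hairpin difference varied between experiments. Of all genes 2 passed (0.00902%, limma; 1376 at an unadjusted p under 0.05), and 17 (0.0766%) with the block, 0 members among them either way. Under insulin 0.00451% of genes passed and under glucagon 0%, and with the block 0.00902% and 0.00451%, again with 0 members. Under insulin Nr5a2 differed by 0.20 (unadjusted p = 0.0468, and 0.0273 with the block). This came mainly from experiment 3, in which Foxa2 was lowered least. Its pairs differed by 0.47 with DMSO and 0.69 with GW4064, against 0.08 and -0.05 in experiment 1 and -0.16 and 0.19 in experiment 2. Cebpa was higher with shFOXA2 in 6 of 6 insulin pairs, by 0.11 to 0.25 (difference 0.18, unadjusted p = 0.209, and 0.0481 with the block). Under glucagon Onecut2 differed by 0.19 (unadjusted p = 0.259, and 0.0393 with the block). None of these passed the adjustment over all genes, with limma adjusted p of 0.411 to 0.617 with the block.

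**Figure D3:**
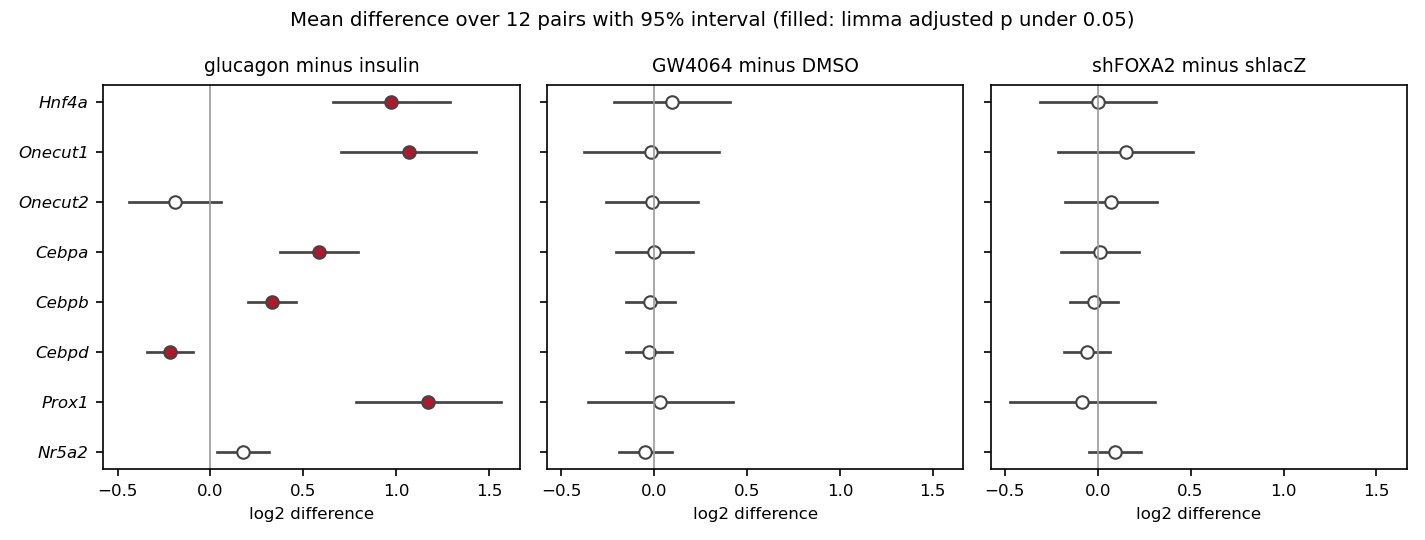
Averaged log2 difference of each factor with its 95% interval for the hormone (glucagon minus insulin), the drug (GW4064 minus DMSO) and the hairpin (shFOXA2 minus shlacZ), over all 24 arrays. The hormone intervals of Hnf4a, Onecut1, Prox1, Cebpa, Cebpb, Cebpd and Nr5a2 exclude 0, and all intervals for the drug and the hairpin include it.

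The hormone difference of the members was not shown to depend on the hairpin or the drug. The interactions of hormone by hairpin, hormone by drug and hairpin by drug passed for 0 members and 0% of genes in limma, with or without the block. Without the block, an unadjusted p under 0.05 was found for 921, 584 and 705 genes and 0 members. With it, Cebpa had an unadjusted p of 0.0117 for hormone by hairpin (limma adjusted p = 0.633) and Cebpd one of 0.0496 for hairpin by drug (adjusted p = 0.870). The intervals were wide. The change of the hormone difference with the hairpin was -0.06 for Hnf4a (95% interval -0.69 to 0.56), 0.24 for Onecut1 (-0.49 to 0.97) and -0.34 for Cebpa (-0.76 to 0.07, and -0.60 to -0.08 with the block).

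Other transcription factors of the liver moved in both directions. Of 28 measured, 9 rose and 2 fell under glucagon against insulin, with a median difference of 0.15. Klf15, a factor of fasting amino acid breakdown, had the largest difference of these, with levels of 5.46, 6.34 and 6.80 under glucagon and 3.29, 3.99 and 4.95 under insulin (difference 2.11, limma adjusted p = 1.9e-07). The pioneer factor genes Foxa1 (1.21) and Foxa2 (1.19) rose, and Foxa3 (-0.19, limma adjusted p = 0.180) did not pass. Hhex (0.75), a homeobox factor of liver bud formation, Foxo1 (0.58), the fasting factor that insulin inactivates, and Ppara (0.53), the receptor of fatty acid oxidation, rose, as did Bcl6, Nr2f2 and Tbx3. Under insulin Nr2f2 lay at 3.07 to 3.89 and Tbx3 at 3.48 to 4.07, so their differences are set against near-background signal. The same holds in part for Klf15. Nr1h4, which encodes FXR, the target of GW4064, was lower (-0.48, limma adjusted p = 0.0184), as was Gata4 (-0.41, limma adjusted p = 0.00034).

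**Figure D4:**
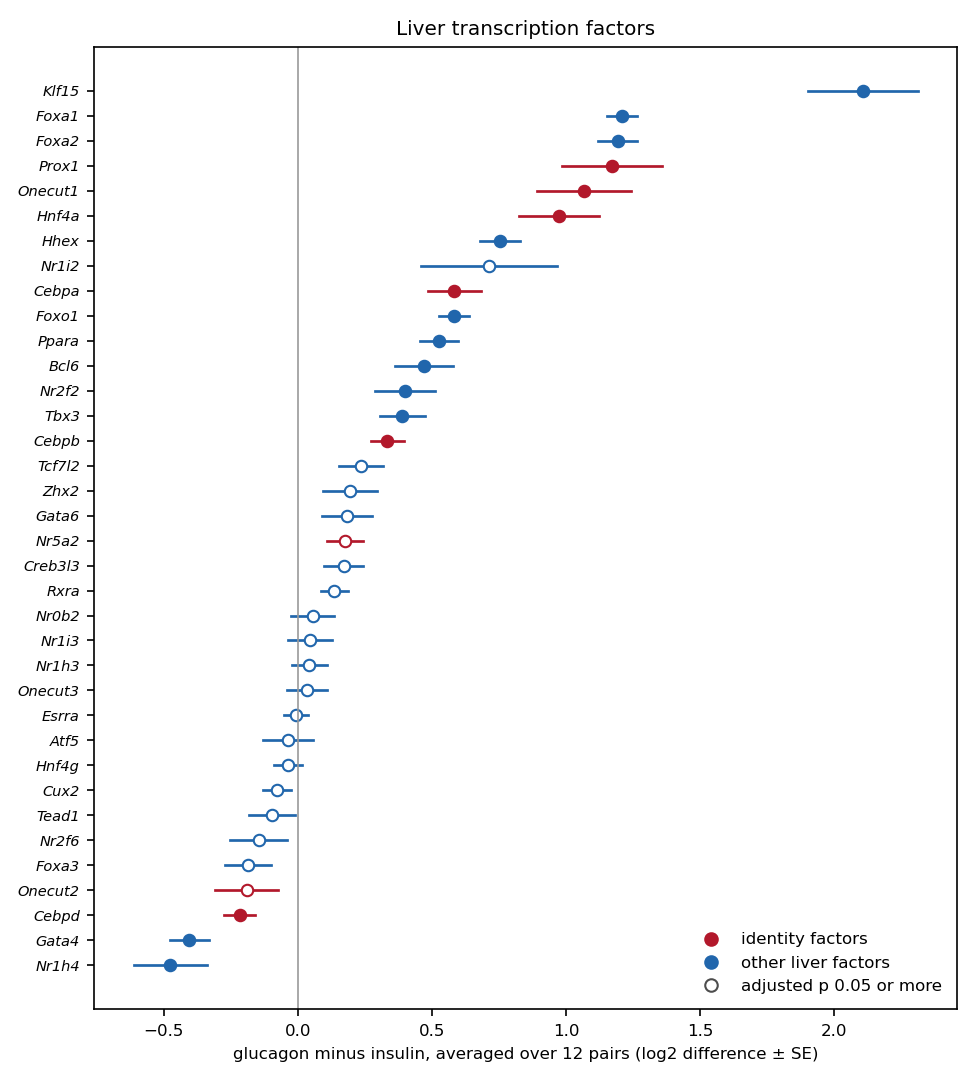
Averaged log2 difference of glucagon minus insulin for the 8 hepatocyte factors and 28 other liver transcription factors, with those that passed the limma test marked. Klf15 lies farthest to the right at 2.11, and Nr1h4 farthest to the left at -0.48.

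Of 7 measured leucine zipper relatives of the C/EBP members, 0 rose and 2 fell. Ddit3, which encodes CHOP, a C/EBP-related factor of the stress response, had levels of 7.22, 7.74 and 8.30 under glucagon and 8.48, 8.92 and 9.14 under insulin (difference -1.18, limma adjusted p = 5.9e-07). Cebpg, a partner of ATF4, had levels of 8.07, 8.26 and 8.40 under glucagon and 8.92, 9.07 and 9.19 under insulin (difference -0.81, limma adjusted p = 3.8e-11). In both genes the 12 glucagon arrays lay below the 12 insulin arrays. All 12 pairs were thus lower under glucagon, as were those of 5.75% of all genes. The clock-controlled factors Dbp, Tef and Hlf stayed between 2.87 and 3.86 on all arrays.

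Genes that the members are known to bind did not rise as one group. Of 13 HNF4A target genes 2 rose and 0 fell, F9 (coagulation factor IX, 0.28) and Ttr (transthyretin, 0.27), with a median of 0.19, and with the block 7 rose and 1 fell. Without the block the apolipoprotein genes Apoa1 (0.11), Apob (0.05) and Apoc3 (0.28) did not pass, with limma adjusted p of 0.111, 0.727 and 0.214. Of 12 C/EBP target genes 3 rose and 0 fell, with a median of 0.28. These were Pck1, the rate-limiting enzyme of gluconeogenesis (6.04, limma adjusted p = 8.6e-12), Tat, tyrosine aminotransferase (2.99), and Cps1, the first enzyme of the urea cycle (1.10). Under insulin Pck1 lay at 3.07 to 4.16, so its difference is set against near-background signal. With the block 8 rose. Without the block the acute phase genes Saa2, Saa3, Orm1, Hp and Lcn2 on that list did not pass, at differences of 0.02 to 0.31.

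Of 5 measured ONECUT target genes 4 rose and 0 fell, namely Tdo2, an enzyme of tryptophan breakdown (1.58), Igfbp1, a secreted binding protein (1.54), Foxa2 (1.19) and Ttr (0.27), while Cyp7a1 stayed at the floor (2.54 to 2.79 under glucagon, 2.44 to 2.84 under insulin). Of 7 NR5A2 target genes, the sterol exporter genes Abcg5 (0.82) and Abcg8 (0.70) rose, the kinase gene Plk3 fell (-0.81), and 4 did not pass. Under insulin Abcg5 lay at 3.06 to 3.67 and Abcg8 at 2.74 to 3.47, so their differences are set against near-background signal. Cyp7a1 and Cyp8b1, enzymes that make bile acids, and the corepressor gene Nr0b2 had mean levels close to the floor. All of these genes also respond to other factors, and the lists overlap.

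Cytokine and NF-kB pathways are known to act on Cebpb and Cebpd. Of 12 NF-kB and acute phase genes 7 were lower under glucagon and 1 was higher, with a median of -1.27. Csf1 (-2.55), Il23a (-2.54), Cxcl1 (-1.98), Cxcl2 (-1.71), Icam1 (-1.57) and Tnfaip3 (-1.53) fell, as did Ccl2 (-1.0). Il23a (3.26 to 3.97) and Cxcl2 (median 3.58) were near the floor under glucagon, so their differences are set against near-background signal. Socs3, a feedback inhibitor of cytokine signalling, was higher (0.54), against near-background signal of 3.25 to 3.92 under insulin. By condition, with no test of the differences between conditions, 7 of the 12 genes fell in shFOXA2 cells with DMSO (median -1.74), 2 in shFOXA2 cells with GW4064 (-1.31, and 5 genes with the block), and in shlacZ cells 2 with DMSO (-1.07) and 2 with GW4064 (-0.54). In shlacZ cells of experiment 3, Cxcl1, Cxcl2, Ccl2, Icam1, Nfkbia and Tnfaip3 were higher under glucagon than under insulin, Icam1 for example at 8.36 and 8.62 against 7.76 and 7.98. The relation of Cebpb and Cebpd to these genes was not tested.

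Markers of hepatocytes and, in part, of other cell types moved with the hormone. Of 9 hepatocyte markers 5 rose and 0 fell (Tat, Cps1, Fgb, Ttr and Ahsg), and their summed level was 14.5 to 14.8 under glucagon and 14.2 to 14.5 under insulin. Of 5 cholangiocyte markers, Sox9 fell (-1.20, limma adjusted p = 0.00046), and Krt7, Epcam and Cftr were near the floor. Their summed level was 6.58 to 7.85 under glucagon and 7.68 to 8.73 under insulin. Without the block, 0 passed of the 9 endothelial, 8 macrophage and 6 lymphocyte genes, and of 8 stellate cell markers Dcn rose (0.35). With the block, 2 macrophage markers rose, Cd14 (0.38) and Cd68 (0.24), as did 1 endothelial marker, Cdh5 (0.16), and 3 stellate cell markers, Dcn, Reln (0.25) and Lrat (0.19), while 2 cholangiocyte markers fell, Sox9 and Krt19 (-0.53). The part of these shifts in the members' differences was not tested.

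For each member, the genes of most similar pattern over the 24 arrays were found by Pearson r, as a description. They were sought among 7504 genes with a mean level of 5 or more, and r does not compare the levels themselves. The arrays share experiments and the hormone, and r was chosen as the highest of many. Hnf4a was most like Cbs (r = 0.978), Hmox1 (0.965) and Slc38a4 (0.955). Prox1 was most like Edem3 (0.955), Cldn1 (0.939) and Gla (0.937), Cebpa like Cdk4 (0.934), Iah1 (0.914) and Gusb (0.913), and Onecut1 like Tedc2 (0.909), Rmnd5a (0.893) and Crebrf (0.892). Likeness was weaker for Cebpb with Klhl21 (0.849), Wdr81 (0.840) and Clic4 (0.824), and for Onecut2 with Tnfrsf23 (0.840), Fndc3a (0.833) and Fnbp1l (0.830). Cebpd came closest to Trim11 (0.80), Cpeb1 (0.766) and Zc3h18 (0.764), and Nr5a2 to Snora61 (0.737), Apof (0.731) and Lgals9 (0.727).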

How the data were processed

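The values are log2 expression values that the authors deposited for 41345 probe sets on 24 arrays, with 0 missing. GeneSpring was used and technical replicates were pooled, per the series' design text, while background correction and normalization were not given in the sources used here. That they are on a log2 scale follows from their range, 1.46 to 13.5. Of the probe sets 23521 had 1 gene symbol in the platform annotation, 1814 several and 16010 none. Those with 1 symbol gave 22180 genes, each on its probe set of highest mean.

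The test was limma 3.58.1 (lmFit and eBayes, R 4.3.3), with 1 mean for each of 8 groups, 16 residual degrees of freedom and Benjamini-Hochberg adjustment over all genes at a threshold of 0.05. The scripts were tested on simulated data. Experiment numbers were taken as pairing the arrays, since deviations from group means correlated in all 84 pairs of arrays of the same experiment (r = 0.374 to 0.698), and for 24 of 24 arrays the best match was from the same experiment. The block fit (14 residual degrees of freedom) leaves differences as they are and changes their error. Alternatives were other scaling, a filter on low values, another variance model, the mean of a gene's probe sets, the 2 groups alone, 1 difference per experiment, and experiments or arrays left out.

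The members, lists and tests were chosen with earlier results of these data known, so no list's direction is independent support. The text names all members, of each other list the called genes with values for up to 6, the 3 genes most like each member, and Foxa2. Genes named beyond that (those that did not pass, Nr0b2 for the drug, the markers, and the genes that set experiment 3 apart) were chosen after their values were seen. Summed levels are log2 of the sum of the linear values of a list. Python 3.11.15 with matplotlib 3.10.9 drew the figures.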

Additional observations from a re-analysis of the deposited data

How the results depend on the processing

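For the averaged hormone comparison, the directions of the 6 members that passed were the same under every alternative run, and Hnf4a, Onecut1 and Prox1 passed in all of them. With experiments left out in turn, 3 to 6 members passed, and without any 1 of the 24 arrays 6 or 7 (chosen after seeing the data). Over all genes, 3600 passed, 5454 with the block, 2018 without experiment 1 and 2216 without experiment 2. The block changed the calls given in the report. In shlacZ cells with DMSO it gave 5 members instead of 3, and 0 to 2 passed with an experiment left out. In shlacZ cells with GW4064 it gave 3 instead of 0, leaving out low values gave 1, and leaving out an experiment 0 to 1. In shFOXA2 cells with DMSO 1 member passed instead of 2 with each array centred on its median or with a trended and robust variance, 0 with only the 2 groups fitted, and 0 to 1 with an experiment left out. In shFOXA2 cells with GW4064 the block gave 3 instead of 0, and leaving out an experiment 0 to 1. The cause was not tested, except that leaving out an experiment or the other groups also leaves fewer arrays. Over all genes, the single conditions passed 1062, 775, 1039 and 686 genes (shFOXA2 with DMSO, shFOXA2 with GW4064, shlacZ with DMSO, shlacZ with GW4064), with the block 2500, 2027, 2481 and 1865, and with only the 2 groups fitted 409, 316, 541 and 232. With an experiment left out they passed 362 to 913, 181 to 845, 297 to 982 and 174 to 797 in the same order. The comparisons of GW4064, of the hairpin and of the interactions called 0 members under every alternative run. For the averaged hairpin comparison 2 genes passed, 17 with the block, 4 with median centring or quantile normalization, 0 with 1 difference per experiment and 0 to 1 without an experiment. For the averaged drug comparison 2 passed, 3 with the block, 1 with quantile normalization or low values left out, and 0 without experiment 1 or 2. Levels near the floor limit what can be said of Cebpd and of Onecut1 under insulin.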
